A study of Homo sapiens with 10 samples.

Results

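The genes described here make cholesterol and fatty acids, control that synthesis, or move sterols within and out of the cell. They were chosen by name, as 32 gene symbols, and each gene is represented by its brightest probe set, judged by mean log2 signal over the 10 arrays. Of the 32 genes, 29 had a usable probe set, out of 19775 genes measured in all, and all 29 lay above the filter on dim genes. They were 15 of 17 listed enzymes of sterol synthesis, 7 of 8 genes of fatty acid and glycerolipid synthesis, 4 of 4 regulators, and 3 of 3 genes of sterol transport. CYP51A1 and FADS1 had only probe sets that the annotation shares with another gene, and FDFT1 was not analysed here.

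Transcripts were measured on 10 Affymetrix U133 Plus 2.0 arrays, 5 from A549 and 5 from H1650. Both lines come from human non-small cell lung cancers. In each line there was 1 array for ID1 siRNA with nicotine, control siRNA with nicotine, ID1 siRNA with EGF, control siRNA with EGF, and control siRNA with no stimulus. ID1 lacks a DNA-binding region of its own and blocks the bHLH class of transcription factors by pairing with them. Cells went without serum for 48 h, and the stimulated ones then received 1 µM nicotine or 100 ng/ml EGF for 18 h, so every array comes from siRNA-transfected, serum-starved cells. Nicotine acts on acetylcholine receptors, and EGF is the ligand of the EGF receptor.

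Animal cells build cholesterol from acetyl-CoA through mevalonate, isoprenoids, squalene and lanosterol, and fatty acids from the same precursor through malonyl-CoA. The transcription factors SREBP-1 and SREBP-2, made from SREBF1 and SREBF2, stay in the endoplasmic reticulum while sterols are plentiful, held there by the INSIG proteins. When sterols run low they are cut, enter the nucleus and switch on the synthesis genes, while oxysterols act through LXR receptors to raise ABCA1, ABCG1 and SREBF1.

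SREBPs bind short sterol regulatory elements in promoters, often beside a CCAAT box bound by NF-Y. The 250 bases before the transcription start were taken from RefSeq (GRCh38.p14) for 25 of the 29 genes, with 37 start sites among them. A match to either strand of CCAAT was present in 18 of 25 genes, or 72%, against 37.0% of the 27305 genes in the table. The element core TCACNCCAC was present in 1 of 37 windows, that of SREBF2, against 0.883% of 35116 windows. The following 4 windows are shown because SREBF2 holds that core and because HMGCS1, SC5D and STARD4 are among the genes whose response to ID1 siRNA differed between the lines. Capitals mark matches, with ATTGG being CCAAT read on the other strand.
SREBF2, chr22:41832855-41833104, plus strand: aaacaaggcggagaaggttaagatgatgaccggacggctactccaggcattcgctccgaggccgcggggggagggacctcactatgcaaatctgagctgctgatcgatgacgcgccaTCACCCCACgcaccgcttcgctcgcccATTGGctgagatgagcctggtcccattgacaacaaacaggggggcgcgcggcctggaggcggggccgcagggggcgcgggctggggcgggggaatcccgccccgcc
HMGCS1, chr5:43313413-43313662, minus strand: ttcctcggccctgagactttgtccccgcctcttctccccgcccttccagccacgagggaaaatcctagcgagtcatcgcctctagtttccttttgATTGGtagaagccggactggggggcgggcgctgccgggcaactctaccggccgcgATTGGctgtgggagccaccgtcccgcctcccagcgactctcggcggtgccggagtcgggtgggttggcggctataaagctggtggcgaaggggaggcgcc
SC5D, chr11:121292521-121292770, plus strand: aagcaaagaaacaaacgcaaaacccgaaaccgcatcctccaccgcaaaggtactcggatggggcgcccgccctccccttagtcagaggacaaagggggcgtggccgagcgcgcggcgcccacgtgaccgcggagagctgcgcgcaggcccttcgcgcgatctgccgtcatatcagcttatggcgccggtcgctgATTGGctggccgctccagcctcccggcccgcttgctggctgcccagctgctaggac
STARD4, chr5:111512536-111512785, minus strand: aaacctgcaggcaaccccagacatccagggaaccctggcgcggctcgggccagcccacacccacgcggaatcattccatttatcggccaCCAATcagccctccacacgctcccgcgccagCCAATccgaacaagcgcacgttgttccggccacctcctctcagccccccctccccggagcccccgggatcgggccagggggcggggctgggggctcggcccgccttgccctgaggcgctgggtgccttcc
In SREBF2 the core lies upstream of an ATTGG match. HMGCS1 has a pair of ATTGG matches, STARD4 has a pair of CCAAT matches, and SC5D has 1 ATTGG. The window of another HMGCS1 start site, not shown, has 0 matches. Of the other genes whose response differed between the lines, HSD17B7 has 1 ATTGG match, ELOVL6 and ABCA1 have 0, and ABCG1 had no window. The windows shown therefore do not tie the differing response to these matches. A match is a run of letters and was not tested as a binding site.

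Signals below are linear MAS5 intensities, given to 4 digits, on arrays scaled to a trimmed mean of 500, whose medians lay between 61.2 and 79.6. Where 2 signals are given for a condition, the nicotine array comes first and the EGF array second. With n = 1 array per line and condition, and no label saying that arrays came from separate cultures, p-values measure only how far matched arrays differ, pooled with the spread of other genes. Errors beside log2 changes are limma standard errors, and a gene is said to have risen or fallen only where its Benjamini-Hochberg adjusted p over 12514 genes was under 0.05. Fewer cells making a transcript and less transcript per cell cannot be told apart in such bulk RNA.

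The targeted gene, ID1, had signals of 1343 and 1343 with ID1 siRNA in A549, against 3720 and 3049 with control siRNA. In H1650 it had 881.0 and 1031 with ID1 siRNA, against 4964 and 5121 with control siRNA. The array labelled unstimulated control had 5030 in H1650 but 1645 in A549, nearer to the A549 ID1 siRNA arrays than to the stimulated controls. That array enters the comparison of lines and the comparisons with no stimulus, but not the tests of ID1 siRNA. The epithelial markers EPCAM, KRT8, KRT18, KRT19 and CDH1 were above the array median on all 10 arrays. Of the 4 lung markers, SFTPB and SFTPC were above it on 10 arrays, NAPSA on 6, and the lineage factor NKX2-1 on 0. Of 12 markers of other cells (leukocytes, endothelium, fibroblasts, red cells and fat cells), PECAM1, COL1A1 and HBB were above it on 10 arrays, DCN on 9, CD3E and CDH5 on 2, and VWF on 1. PTPRC, COL1A2, ADIPOQ, PLIN1 and LEP were above it on 0 arrays. The summed signal of these 12 markers was 820 to 1446 in A549 and 1017 to 1833 in H1650.

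The first comparison asks how the lines differ in lipid synthesis genes over all 5 conditions. A549 had lower transcripts than H1650 for most sterol synthesis enzymes and higher ones for several fatty acid genes. Of the 29 genes, 22 passed, which is 75.9% against 63.1% of all tested genes, 8 of them higher in A549 (27.6%, against 30.9% of all genes) and 14 lower (48.3%, against 32.2%). Of the 15 sterol enzymes, 11 were lower in A549 (73.3%) and 2 higher, with a median log2 difference of -0.51, against -0.03 over all tested genes. Of the 7 fatty acid genes, 4 were higher and 1 lower, with a median of 0.30. SCD, 1 of the 4, lay lower in A549 on each of its other probe sets. Of 19 tested of 24 other listed sterol genes, 10 were higher in A549 and 2 lower, with a median of 0.34. Of 21 tested of 26 other listed fatty acid genes, 4 were higher and 8 lower, with a median of -0.06 and values from -2.65 (ELOVL4) to 3.04 (ELOVL2). No list was tested as a whole. Of the epithelial markers, EPCAM (-3.57), CDH1 (-3.37) and KRT19 (-2.04) were also lower in A549, KRT8 and KRT18 were higher, and the 9 epithelial and lung markers summed to 56106 to 86478 in A549 and 88211 to 101182 in H1650. Their part in the result was not tested.

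**Figure D1:**
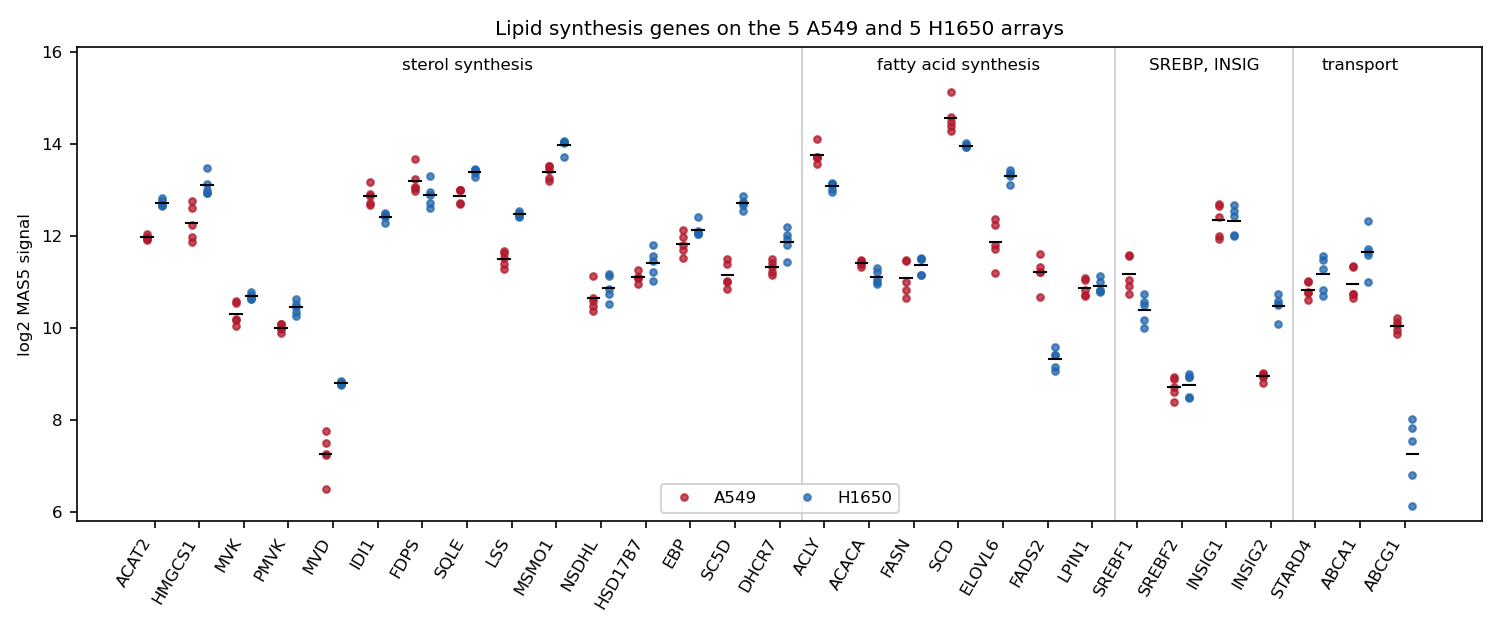
Log2 MAS5 signal of 29 lipid genes, 1 point per array (A549 red, H1650 blue, 5 arrays each), with black bars at the mean of each line. Genes for which the lines do not overlap include SC5D, LSS, MVD and ELOVL6, which lie lower in A549, and FADS2 and ABCG1, which lie higher.

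SC5D, which puts the C5 double bond into the sterol ring, had signals from 1826 to 2905 in A549, with a median of 2074, and from 5956 to 7462 in H1650, with a median of 6738. LSS, which closes squalene epoxide into lanosterol, ranged from 2483 to 3239 in A549 and from 5427 to 5927 in H1650. MVD, the last enzyme of the mevalonate steps, ranged from 90.2 to 217.5 in A549 and from 433.2 to 461.9 in H1650. For these 3 enzymes every A549 array lay below every H1650 array. The share of all tested genes whose lines do not overlap is not given, here or for the genes below. The log2 differences, A549 minus H1650, were -1.56 ± 0.14 for SC5D (adjusted p = 2.19e-05), -0.97 ± 0.10 for LSS (adjusted p = 4.18e-05) and -1.54 ± 0.19 for MVD (adjusted p = 0.000143).

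HMGCS1, which makes HMG-CoA, and SQLE, which oxidises squalene, also lay lower on every A549 array, by log2 differences of -0.81 and -0.51. So did ACAT2 (-0.75), which joins the first acetyl units, the mevalonate kinases MVK (-0.38) and PMVK (-0.44), and the C4 demethylation enzyme MSMO1 (-0.59). DHCR7 (-0.56), which reduces 7-dehydrocholesterol to cholesterol, and the sterol isomerase EBP (-0.31) passed as well, with some overlap between the lines. With arrays centred on their medians, MVK was at -0.23 (adjusted p = 0.0709), PMVK at -0.28 (adjusted p = 0.0749) and EBP at -0.15 (adjusted p = 0.276). With probe sets averaged, MVK was at -0.36 (adjusted p = 0.136) and EBP at -0.19 (adjusted p = 0.153). EBP was at -0.25 without the A549 or the H1650 unstimulated array (adjusted p = 0.0588 and 0.0578). The 2 sterol enzymes that were higher in A549 make or use isoprenoids: IDI1, the isopentenyl diphosphate isomerase (0.46), and FDPS, the farnesyl diphosphate synthase (0.30). NSDHL and HSD17B7, the other enzymes of C4 demethylation, did not pass (adjusted p = 0.284 and 0.0707). The FDPS call was lost when any of 6 single stimulated arrays was left out, with adjusted p between 0.0557 and 0.0673 and a log2 difference of 0.29 in each, and under quantile normalization (0.15, adjusted p = 0.149).

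FADS2, the delta-6 desaturase of polyunsaturated fatty acid synthesis, ranged from 1638 to 3125 in A549 and from 532.9 to 762.5 in H1650. ELOVL6, which lengthens palmitate, ran the other way, from 2325 to 5243 in A549 and from 8794 to 11077 in H1650. Neither gene overlapped between the lines. The log2 difference was 1.89 ± 0.16 for FADS2, 3.71-fold higher in A549 (adjusted p = 1.72e-05), and -1.45 ± 0.14 for ELOVL6, 2.73-fold lower (adjusted p = 3.38e-05). ACLY, which supplies cytosolic acetyl-CoA, was higher in A549 by 0.68, the stearoyl-CoA desaturase SCD by 0.60, and the acetyl-CoA carboxylase ACACA by 0.30. The SCD value rests on its brightest probe set, since its others lay between -0.77 and -0.58. With its probe sets averaged, SCD was lower in A549 in limma (-0.35, adjusted p = 0.0299). FASN, the fatty acid synthase itself, did not pass (-0.28, adjusted p = 0.0617), nor did LPIN1 (-0.03, adjusted p = 0.813), the phosphatidate phosphatase. The ACACA value without the A549 or the H1650 unstimulated array was 0.26, with adjusted p = 0.0621 and 0.0617, and without the A549 or the H1650 EGF control it was 0.26, with adjusted p = 0.0558 and 0.0548. With probe sets averaged it was 0.21 (adjusted p = 0.107).

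Among regulators, SREBF1 was 1.72-fold higher in A549 (log2 0.78 ± 0.14, adjusted p = 0.00148), with signals from 1707 to 3057 in A549 and from 1026 to 1697 in H1650. This rests on the brightest SREBF1 probe set, since the other was at -0.39 and the average of both at 0.19 (adjusted p = 0.280). INSIG2 was 2.90-fold lower (-1.53 ± 0.11, adjusted p = 5.09e-06), with 448.5 to 521.0 in A549 and 1077 to 1690 in H1650. INSIG1 and SREBF2 had differences of 0.01 and -0.05 and did not pass. ABCG1, a sterol exporter of the plasma membrane, ranged from 932.3 to 1185 in A549 and from 69.7 to 259.9 in H1650, with a log2 difference of 2.78 ± 0.24 (adjusted p = 1.71e-05). ABCA1, which exports cholesterol to apolipoprotein A-I, was lower in A549 by -0.69 ± 0.24 (adjusted p = 0.0326), but its lines overlapped. Leaving out 1 array took ABCA1 to -0.60 without either nicotine control, -0.65 without either EGF ID1 siRNA array and -0.46 without either EGF control, with adjusted p between 0.0733 and 0.109. ABCA1 also lost its call with arrays centred (-0.53, adjusted p = 0.0556), with probe sets averaged (-0.62, adjusted p = 0.116) and without the intensity trend (adjusted p = 0.0578).

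The second comparison asks what ID1 siRNA did in A549, with the nicotine and the EGF arrays as matched pairs. The sterol enzymes HMGCS1, MVK, MVD, LSS and SC5D rose with ID1 siRNA, as did INSIG1 and ELOVL6, while SREBF1, FASN, FADS2 and FDPS fell. In all, 11 of 29 genes passed, or 37.9%, against 25.3% of all tested genes. Of these, 7 rose (24.1%, against 13.8% of all genes) and 4 fell (13.8%, against 11.4%). The median log2 change was 0.06, against 0.05 over all tested genes. The split depends on the scaling of the arrays, as array medians over all probe sets were 78.5 and 75.9 with ID1 siRNA in A549, against 65.2 and 61.2 with control siRNA. In H1650 they were 79.6 and 78.9, against 79.3 and 73.8. With every array centred on its median, 3 of the 29 genes rose and 10 fell, while over all tested genes 948 rose and 3966 fell and the median change was -0.23, against 1733, 1428 and 0.05 as deposited. HMGCS1, INSIG1 and ELOVL6 rose, and SREBF1, FASN, FADS2 and FDPS fell, under both scalings. Without the intensity trend in the limma fit, 2 of the 29 genes passed, HMGCS1 and INSIG1.

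Some cell markers changed in the same A549 pairs. COL1A1, a fibroblast collagen, had 663.9 and 658.7 with ID1 siRNA, against 403.4 and 222.6 with control siRNA, and rose by 1.14 ± 0.23 (adjusted p = 0.00846). It was the 1 that passed of 4 tested markers of other cells (25.0%, against 25.3% of all tested genes). On the stimulated arrays the summed signal of the 12 was 1405 to 1433 with ID1 siRNA, against 820 to 968 with control siRNA. The unstimulated A549 control array lay above both ID1 siRNA arrays, with 853 for COL1A1 and a sum of 1446. Of 8 tested epithelial and lung markers 2 passed, also 25.0%, with KRT19 up by 0.60 and CDH1 by 0.47. Both shares are near that of all tested genes. The sum of the 9 listed was 57203 to 66059 with ID1 siRNA, against 56106 to 86478 with control siRNA. The part of these markers in the A549 results was not tested.

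HMGCS1 had 6204 and 6936 with ID1 siRNA in A549, against 4032 and 3714 with control siRNA. SC5D had 2905 and 2677 with ID1 siRNA, against 1826 and 2045 with control siRNA. MVD had 217.5 and 180.9 with ID1 siRNA, against 152.2 and 90.16 with control siRNA. The ID1 siRNA arrays were above both controls for each of these enzymes. The log2 changes were 0.76 ± 0.12 for HMGCS1 (adjusted p = 0.00282), 0.53 ± 0.10 for SC5D (adjusted p = 0.00771) and 0.76 ± 0.22 for MVD (adjusted p = 0.0345). MVK had 1483 and 1522 with ID1 siRNA, against 1167 and 1155 with control siRNA, a change of 0.37 ± 0.10 (adjusted p = 0.0272). LSS had 3180 and 3239 with ID1 siRNA, against 2483 and 2667 with control siRNA, a change of 0.32 ± 0.10 (adjusted p = 0.0401).

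Without either array of the nicotine pair SC5D was 0.39 (adjusted p = 0.0703 and 0.0704), and without either array of the EGF pair MVD was 0.52 (adjusted p = 0.284 and 0.263). MVK lost its call without any 1 of the 4 A549 arrays (0.35 to 0.40, adjusted p from 0.104 to 0.199), as did LSS (0.28 to 0.36, adjusted p from 0.129 to 0.179). LSS also lost it without either H1650 EGF array (adjusted p = 0.0505 and 0.0502). With array medians as the scale, LSS was at 0.03, MVK at 0.08, SC5D at 0.24 and MVD at 0.47, and none of the 4 passed. Under quantile normalization MVK was at 0.31 (adjusted p = 0.0680) and MVD at 0.52 (adjusted p = 0.0926).

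FDPS was the 1 sterol enzyme that fell in A549, with 7981 and 8569 in ID1 siRNA cells against 9614 and 13020 in control cells. Its log2 change was -0.44 ± 0.13 (adjusted p = 0.0417), and without either array of the EGF pair it was -0.27 (adjusted p = 0.290 and 0.294). Under quantile normalization it was -0.18 (adjusted p = 0.225). Without any 1 of the H1650 arrays it stayed at -0.44 with adjusted p between 0.0517 and 0.0587. The other 9 sterol enzymes did not pass and lay between -0.30 (EBP, adjusted p = 0.0725) and 0.30 (NSDHL, adjusted p = 0.0932). Over the 15 sterol enzymes, 5 rose (33.3%, against 13.8% of all tested genes) and 1 fell (6.67%, against 11.4%), with a median change of 0.15.

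INSIG1, which retains SREBP in the endoplasmic reticulum and is itself an SREBP target, had 6615 and 6434 with ID1 siRNA in A549, against 3916 and 4098 with control siRNA. SREBF1 had 1707 and 2097 with ID1 siRNA, against 3040 and 3057 with control siRNA. On the stimulated arrays the siRNA groups did not overlap for either gene. The unstimulated A549 control had 5391 for INSIG1 and 1923 for SREBF1, the latter between the ID1 siRNA arrays. INSIG1 rose by 0.70 ± 0.11 (adjusted p = 0.00274), and SREBF1 changed by -0.69 ± 0.11 (adjusted p = 0.00336). SREBF2 was at -0.36 (adjusted p = 0.153) and INSIG2 at -0.05 (adjusted p = 0.818).

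Fatty acid genes moved in both directions in A549, with a median of -0.28. Of the 7, 1 rose (14.3%, against 13.8% of all tested genes) and 2 fell (28.6%, against 11.4%). FASN had 1591 and 2025 with ID1 siRNA, against 2804 and 2827 with control siRNA. FADS2 had 1638 and 2385 with ID1 siRNA, against 2555 and 3125 with control siRNA. ELOVL6 had 5243 and 4801 with ID1 siRNA, against 3351 and 2325 with control siRNA. ELOVL6 thus lay above both stimulated controls while FASN and FADS2 lay below both. The unstimulated A549 control had 3567 for ELOVL6, 1814 for FASN and 2381 for FADS2, the last 2 between their ID1 siRNA signals. The changes were -0.65 ± 0.11 for FASN (adjusted p = 0.00358), -0.52 ± 0.11 for FADS2 (adjusted p = 0.0117) and 0.85 ± 0.14 for ELOVL6 (adjusted p = 0.00311). FADS2 was at -0.39 without either array of the nicotine pair (adjusted p = 0.129 and 0.136). SCD (-0.43, adjusted p = 0.0798), ACLY (-0.28, adjusted p = 0.129), ACACA (0.06) and LPIN1 (0.31, adjusted p = 0.0552) did not pass. Of the transport genes, 0 of 3 passed in A549, with STARD4 at 0.23, ABCA1 at 0.34 and ABCG1 at -0.08. Leaving out either A549 EGF array took ABCA1 to 0.67, which is the nicotine pair alone (2562 with ID1 siRNA, against 1610). The A549 EGF pair of ABCA1 had 1707 with ID1 siRNA, against 1691 with control siRNA.

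**Figure D2:**
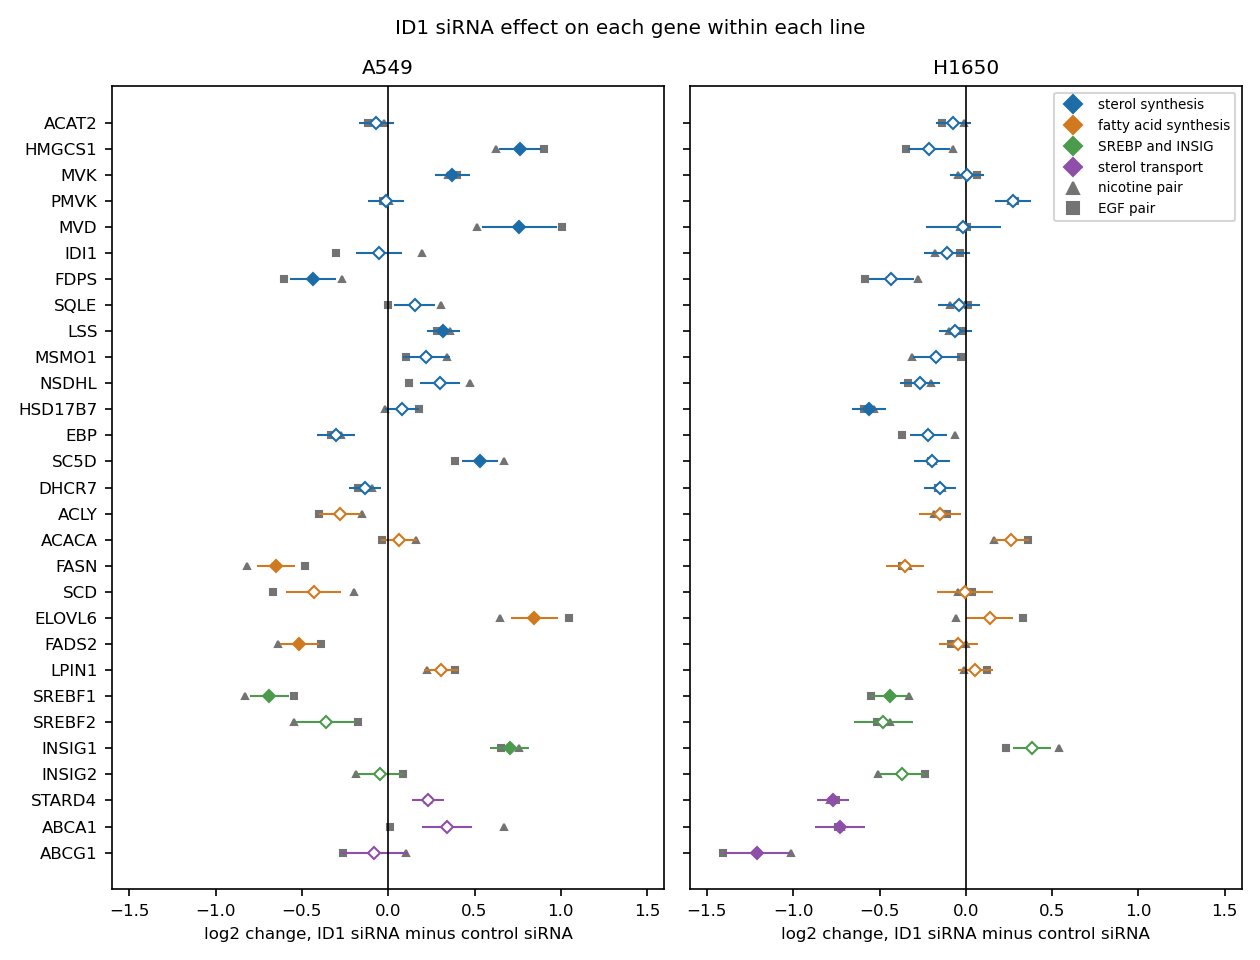
Log2 change with ID1 siRNA for 29 genes in A549 (left) and H1650 (right), with diamonds at the estimate, bars of 1 limma standard error, triangles for the nicotine pair and squares for the EGF pair. Filled diamonds passed at an adjusted p under 0.05, 11 in A549 and 5 in H1650, and open ones did not.

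The third comparison asks the same in H1650. There the sterol transport genes STARD4, ABCA1 and ABCG1 fell with ID1 siRNA, together with SREBF1 and the sterol enzyme HSD17B7. Of the 29 genes 5 passed, or 17.2%, against 12.3% of all tested genes. All 5 fell, against 6.66% of all genes that fell, and 0 rose, against 5.64%. The median over the 29 genes was -0.15, against -0.01 over all tested genes. By role, 1 of 15 sterol enzymes fell (median -0.15), 0 of 7 fatty acid genes passed (median -0.00) and 3 of 3 transport genes fell (median -0.77). For ABCG1 this rests on its brightest probe set, as given below. Centring arrays on their medians gave 0 that rose and 6 that fell, FASN being the sixth. Of the markers, 0 of 8 epithelial and lung ones and 0 of 4 of other cells passed in H1650, where the 12 of other cells summed to 1406 to 1833 with ID1 siRNA, against 1017 to 1310 with control siRNA. Without the intensity trend in the limma fit, 0 of the 29 genes passed in H1650, and 1 of 12514 did.

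STARD4, a soluble carrier of cholesterol between membranes, had 1645 and 1808 with ID1 siRNA in H1650, against 2842 and 3039 with control siRNA. ABCA1 had 2029 and 3050 with ID1 siRNA, against 3344 and 5106 with control siRNA. ABCG1 had 111.7 and 69.74 with ID1 siRNA, against 225.1 and 184.8 with control siRNA. The ID1 siRNA arrays lay below both controls for all 3 genes. The log2 changes were -0.77 ± 0.09 for STARD4 (adjusted p = 0.00241), -0.73 ± 0.14 for ABCA1 (adjusted p = 0.0142) and -1.21 ± 0.19 for ABCG1 (adjusted p = 0.00630). ABCG1 is dim in H1650, and the ID1 siRNA EGF signal lay below the median of its own array, so the size of its change is uncertain. Its other probe sets above the filter were at 0.02 and -0.18, and one below the filter was at -1.11. The ABCG1 fall therefore rests on its brightest probe set.

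HSD17B7, the 3-ketosteroid reductase of C4 demethylation, had 2075 and 2355 with ID1 siRNA in H1650, against 3006 and 3543 with control siRNA. SREBF1 had 1145 and 1026 with ID1 siRNA, against 1437 and 1501 with control siRNA. Both genes lay below both controls, with changes of -0.56 ± 0.10 for HSD17B7 (adjusted p = 0.00921) and -0.44 ± 0.11 for SREBF1 (adjusted p = 0.0393). SREBF1 was at -0.33 without either array of the H1650 EGF pair (adjusted p = 0.248 and 0.249). The probe set of HSD17B7 is of a kind that may share probes with near-identical sequences. Among genes that did not pass, INSIG1 had 5973 and 6460 with ID1 siRNA, against 4115 and 5502 with control siRNA (0.38, adjusted p = 0.0577). FDPS was at -0.43 (adjusted p = 0.0678), FASN at -0.35 (adjusted p = 0.0698) and SREBF2 at -0.48 (adjusted p = 0.107). Without any 1 of the 4 A549 arrays, more genes passed in H1650, both among the 29 and over all tested genes. The fit holds 1 estimate of spread for both lines. Without the A549 EGF control, for example, INSIG1 passed at 0.38 (adjusted p = 0.0390), FDPS at -0.43 (adjusted p = 0.0240) and FASN at -0.35 (adjusted p = 0.0454).

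**Figure D3:**
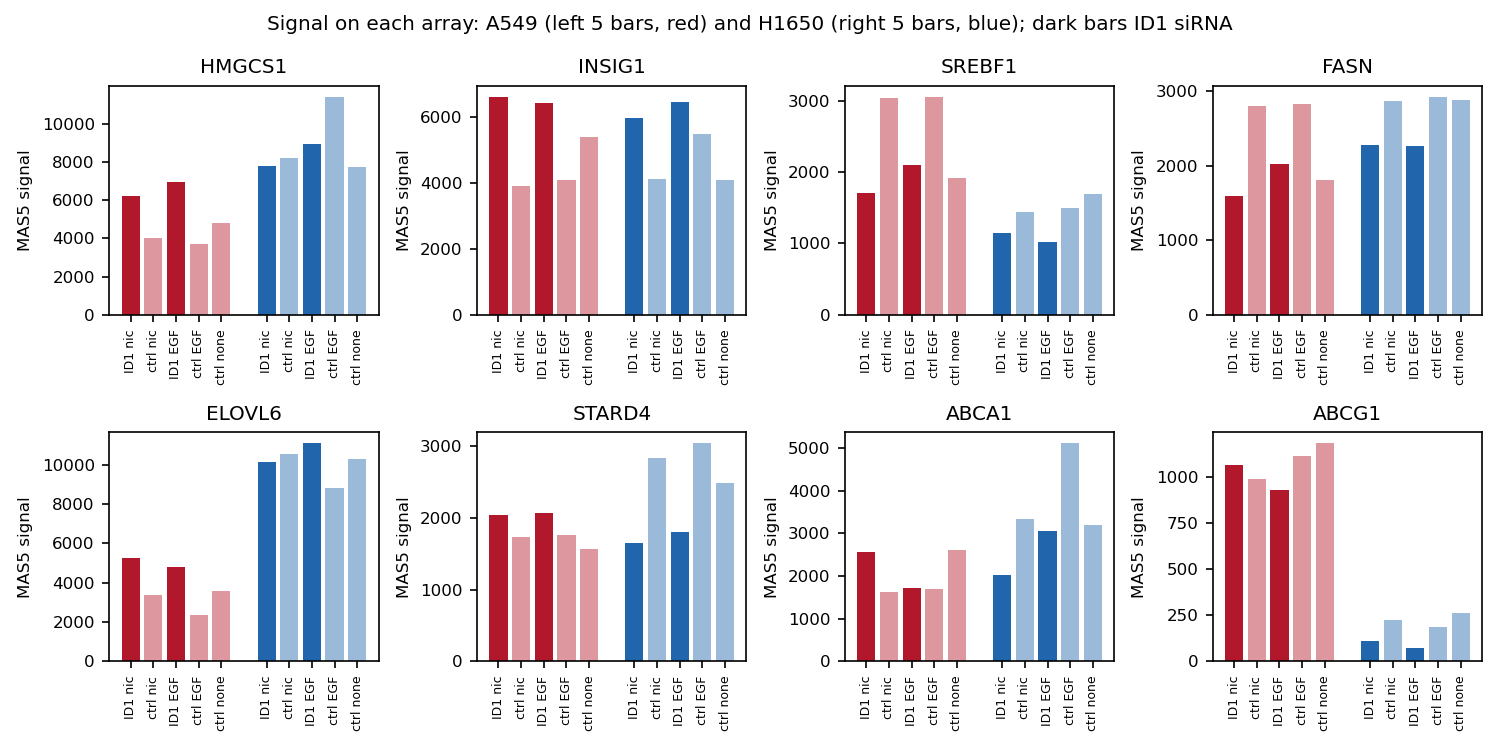
MAS5 signal of 8 genes on each of the 10 arrays, as bars from 0, with A549 in red on the left and H1650 in blue on the right, and dark bars for ID1 siRNA. HMGCS1 and ELOVL6 stand higher with ID1 siRNA in A549, and STARD4, ABCA1 and ABCG1 stand lower with it in H1650. With ID1 siRNA, SREBF1 stands below the stimulated controls of both lines.

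The fourth comparison tests whether the response to ID1 siRNA differed between the lines. It did for 7 of 29 genes, or 24.1%, against 11.9% of all tested genes, and in each the change in A549 lay above that in H1650 (24.1%, against 6.98% of all genes; 0 the other way, against 4.92%). These were the sterol enzymes HMGCS1, SC5D and HSD17B7, the elongase ELOVL6, and all 3 transport genes. STARD4 differed by 1.00 ± 0.13 (adjusted p = 0.00252), HMGCS1 by 0.97 ± 0.17 (adjusted p = 0.00919), ABCA1 by 1.07 ± 0.20 (adjusted p = 0.0130) and SC5D by 0.73 ± 0.15 (adjusted p = 0.0171). HSD17B7 differed by 0.64 ± 0.14 (adjusted p = 0.0217), ABCG1 by 1.13 ± 0.27 (adjusted p = 0.0317) and ELOVL6 by 0.71 ± 0.19 (adjusted p = 0.0489). The median difference was 0.25 over the 29 genes and 0.36 over the 15 sterol enzymes, against 0.07 over all tested genes. SREBF1, with -0.69 in A549 and -0.44 in H1650, did not pass for a difference (-0.25 ± 0.16, adjusted p = 0.343), nor did INSIG1 (0.32 ± 0.16, adjusted p = 0.223), FDPS (-0.00 ± 0.19, adjusted p = 0.993) or FASN (-0.30 ± 0.15, adjusted p = 0.246).

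With arrays centred on their medians, 4 of the 29 differences were positive and 3 negative, against 7 and 0 as deposited. The 4 were HMGCS1, STARD4, ABCA1 and ABCG1, and the 3 were FASN (-0.53), FADS2 (-0.71) and PMVK (-0.52). Over all tested genes, 623 differences were positive and 1809 negative under that scaling, against 874 and 616 as deposited, and the median difference was -0.17. Without either A549 EGF array, ELOVL6 was at 0.51 (adjusted p = 0.158 and 0.160) and HSD17B7 at 0.54 (adjusted p = 0.0999 and 0.100). Without either H1650 nicotine array ELOVL6 was at 0.51 (adjusted p = 0.212). ABCG1 was at 0.94 without either A549 nicotine array (adjusted p = 0.0948 and 0.0956) and at 0.93 without either H1650 EGF array (adjusted p = 0.0556 and 0.0762).

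**Figure D4:**
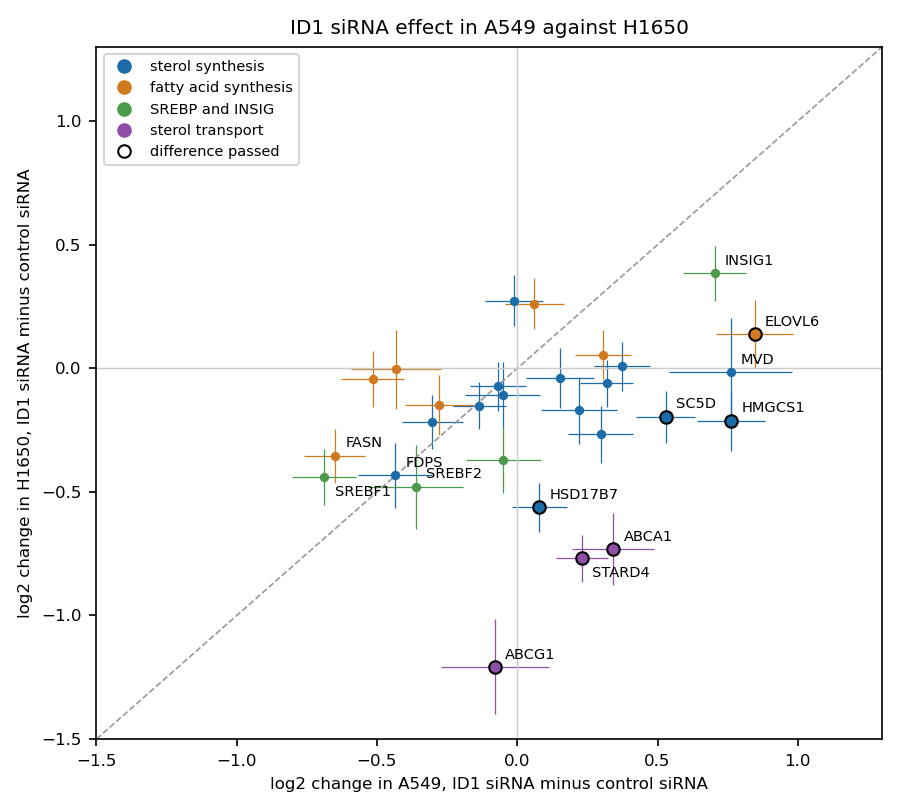
Log2 change with ID1 siRNA in A549 (x axis) and in H1650 (y axis) for 29 genes coloured by role, with bars of 1 limma standard error and a dashed line of equal change. The 7 ringed genes, whose difference passed, lie below the dashed line. On the brightest probe sets, which are the ones shown, SREBF1, FDPS and SREBF2 lie near it at negative values in both lines.

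The pairs of a line can be set side by side as a description. Across the 29 genes, the changes in the nicotine and the EGF pair had a Pearson r of 0.774 in A549 and 0.866 in H1650, against 0.638 and 0.449 across all tested genes. These values carry no p, since genes on the same arrays share their scaling. The sign was the same in both pairs for 22 of 29 genes in A549 and 22 of 29 in H1650, against 74.9% and 68.5% of all tested genes. No gene of the 29 changed by 2-fold or more in both A549 pairs (0 of 29, against 4.41% of all tested genes), and 1, ABCG1, did so in H1650 (against 1.21%). The difference between the lines reached 2-fold in both stimuli for 1 gene, ABCG1 (against 5.19%), and the lines themselves differed 2-fold in all 5 conditions for 5 genes, MVD, SC5D, INSIG2, FADS2 and ABCG1 (against 15.4%).

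The fifth comparison sets EGF against nicotine. The stimulus made no difference that passed: limma called 0 of 29 genes in A549 (against 0.032% of all tested genes), 0 of 29 in H1650 (0.216%) and 0 of 29 for the difference between lines (0.0799%). At an unadjusted p under 0.05 there were 5, 8 and 4. No share of all tested genes at that threshold is given, so these counts cannot be read as an excess or as the lack of one. ABCA1 in H1650 had 3050 and 5106 with EGF (ID1 siRNA, then control siRNA), against 2029 and 3344 with nicotine, a log2 value of 0.60 ± 0.14 (adjusted p = 0.151). Both EGF arrays thus lay above the nicotine array of the same siRNA. FADS2 had log2 values, EGF minus nicotine, of 0.42 in A549 (adjusted p = 0.441) and -0.30 in H1650 (adjusted p = 0.389). NSDHL had -0.46 in A549 (adjusted p = 0.420) and 0.38 in H1650 (adjusted p = 0.277), and the difference between the lines, -0.84 ± 0.16, did not pass (adjusted p = 0.200).

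The stimulated controls were also set against the unstimulated controls over both lines. For EGF minus no stimulus limma called 0 of 29 genes, and for nicotine minus no stimulus 0 of 29, against 0% of all tested genes in each. At an unadjusted p under 0.05 there were 3 for EGF and 0 for nicotine, again without a share of all tested genes at that threshold. The larger values with EGF were 0.49 ± 0.14 for FDPS, 0.46 ± 0.14 for EBP and 0.44 ± 0.19 for DHCR7 (adjusted p = 0.799, 0.799 and 0.831). The unstimulated A549 array lay nearer to the A549 ID1 siRNA arrays than to the stimulated controls for 16 of 29 genes, or 55.2%, against 56.4% of all tested genes. In H1650 this held for 7 of 29 genes, or 24.1%, against 33.0% of all tested genes. Among genes called for ID1 siRNA it held for 5 of 11 in A549 (45.5%, against 63.7% of all called genes) and for 1 of 5 in H1650 (20%, against 9.81%).

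Of the 29 genes, 21 had more than 1 probe set, 70 in all, and some disagreed. SCD has its brightest probe set at -0.43 in A549 and -0.00 in H1650, while its 3 other bright probe sets lay between -0.86 and -0.48 in A549 and between -1.12 and -0.82 in H1650. They also reverse the difference between the lines, which was 0.60 on the brightest and between -0.77 and -0.58 on the others. ACACA was at 0.06 in A549 and 0.26 in H1650 on its brightest probe set, and at -0.97 and -0.44 on the other. SREBF2 was at -0.36 in A549 on its brightest probe set and at 0.24 and 0.04 on the others. In H1650 the SREBF2 probe sets were at -0.48, -0.37 and -0.42. SQLE was at 0.15 in A549 on its brightest probe set and at 0.34, 0.77 and 0.69 on the others. In H1650 the SQLE probe sets lay between -0.05 and 0.14. SREBF1 was at -0.69 in A549 on its brightest probe set and at 0.41 on a dimmer one, so its fall rests on 1 probe set. With a gene's probe sets averaged, SREBF1 was at -0.14 in A549 (adjusted p = 0.724) and -0.30 in H1650 (adjusted p = 0.515), and FASN was at -0.11 in A549 (adjusted p = 0.789), although the other FASN probe set lies below the filter. In H1650 that average was -0.82 for ABCA1 and -0.62 for ABCG1, and neither passed (adjusted p = 0.255). The ABCA1 average takes in 2 probe sets below the filter, and the pair above it had -0.73 and -0.87. HMGCS1 agreed in A549, with 0.76 and 0.68, and INSIG1 had 0.70, 0.52 and 0.78 there. In H1650 INSIG1 had 0.38, -0.29 and 0.35. ELOVL6 had 0.85, 0.46 and -0.03 in A549, in order of brightness, and between the lines -1.45, -1.36 and 1.32. ABCG1 had -1.21 in H1650 on its brightest probe set, and 0.02 and -0.18 on the other 2 above the filter.

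**Figure D5:**
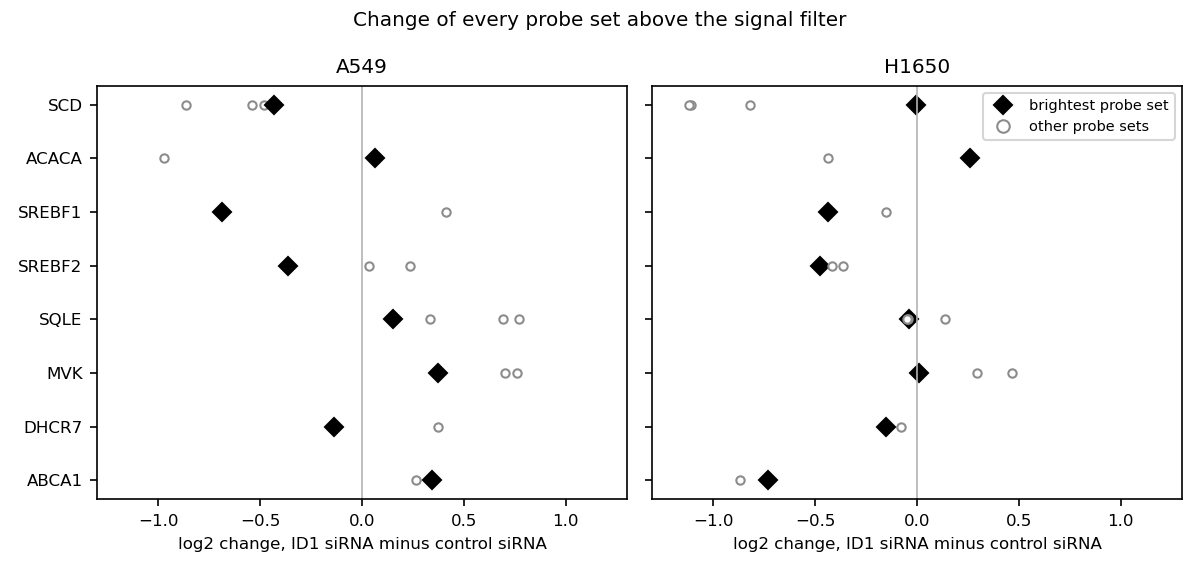
Log2 change with ID1 siRNA for every probe set above the signal filter of 8 genes, chosen after their values were seen, in A549 (left) and H1650 (right). Black diamonds are the brightest probe set and open circles the others; the other SCD probe sets lie between -1.12 and -0.82 in H1650, where the brightest is at -0.00.

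Further genes of the same pathways were read from a pair of lists. Among 19 tested of 24 listed sterol genes beyond the 29, 1 rose and 2 fell with ID1 siRNA in A549, and 2 rose and 2 fell in H1650. These are 15.8% called in A549, against 25.3% of all tested genes, and 21.1% in H1650, against 12.3%. LIPA, the lysosomal acid lipase that frees cholesterol from its esters, had 6977 and 8096 with ID1 siRNA in A549, against 3967 and 4012 with control siRNA, and rose by 0.91. MBTPS2, the site-2 protease that releases SREBP from the membrane, had 5943 and 6424 with ID1 siRNA in A549, against 8412 and 9514 with control siRNA. In H1650 MBTPS2 had 2684 and 2784 with ID1 siRNA, against 4417 and 4274 with control siRNA. It fell in both lines, with log2 changes of -0.53 in A549 and -0.67 in H1650. MARCHF6, a ubiquitin ligase of the endoplasmic reticulum that targets SQLE, fell in A549 (-0.35). In H1650 ERLIN1, a membrane protein that binds SREBP complexes, rose by 0.81, LBR, a sterol C14 reductase, rose by 0.51, and GGPS1, which makes geranylgeranyl diphosphate, fell (-0.56). The response differed between the lines for 2 of the 19 genes (10.5%, against 11.9%), 1 in each direction, with LIPA at 1.09 (adjusted p = 0.00283) and ERLIN1 at -0.58 (adjusted p = 0.0337).

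Among 21 tested of 26 further fatty acid genes, 7 rose and 0 fell with ID1 siRNA in A549, and 1 rose and 1 fell in H1650, with medians of 0.26 and -0.01. The share that rose in A549 was 33.3%, against 13.8% of all tested genes, and the share called in H1650 was 9.52%, against 12.3%. ACSL4, an acyl-CoA synthetase that prefers arachidonate, had 2642 and 2776 with ID1 siRNA in A549, against 1223 and 1090 with control siRNA. ACSL5, another acyl-CoA synthetase, had 352.9 and 373.1 with ID1 siRNA in A549, against 88.39 and 120.0 with control siRNA. They rose by 1.23 and 1.82. The elongases ELOVL7 and ELOVL4 rose in A549 by 1.10 and 0.99, with ELOVL4 dim at 63.43 and 73.39 on the controls. In H1650 ACSS2, which makes acetyl-CoA from acetate and is a known SREBP target, had 2087 and 1621 with ID1 siRNA, against 2725 and 4043 with control siRNA, and fell (-0.85). ME1, a source of NADPH, rose there by 0.48. The response differed between the lines for 5 of the 21 genes (23.8%, against 11.9%), all 5 with A549 above H1650, among them ACSL5 by 2.57 and ACSS2 by 1.17.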

How the data were processed

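The authors deposited linear MAS5 signal intensity values, 1 per probe set and array, made with GCOS 1.4 and MAS5 per the submitters' processing notes. A log2 step is named in the labels, yet the deposited intensity values are linear, and log2 was therefore taken here. The 2% trimmed mean of each array is 500, so no further scaling was applied. All 10 columns were mapped to a sample by name.

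The array holds 54675 probe sets. Control probe sets (62), those annotated to more than 1 symbol (1801) and those with no gene (11721) were left out, and 41037 of the remaining 41091 were matched to RefSeq by Entrez identifier. The brightest probe set stood for each of 19775 genes, and 12514 genes passed a filter at the median log2 signal of the whole array set (6.06, a signal of 66.7). The members and the lists of genes and markers were chosen with earlier results of these data known. All members are named, and of the further lists up to 4 genes per direction and line with the largest change among those that passed.

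Tests were made in limma 3.58.1 (R 4.3.3) with an intensity trend and Benjamini-Hochberg adjustment over all tested genes. The fit within lines used the 8 stimulated arrays with terms for line by stimulus and for ID1 siRNA within each line, leaving 2 residual degrees of freedom. The comparison of lines, and of stimuli with no stimulus, used 10 arrays with line and condition as terms, leaving 4. The scripts were tested on simulated data. Alternatives were quantile normalization, centring arrays on their medians, 16 added to the signal, no filter, a mean signal of at least 100, averaging a gene's probe sets, no intensity trend, 1 stimulus term for both lines, a 2-fold rule and leaving out each array. Promoter windows are from RefSeq. The number of arrays limits the precision.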

Additional observations from a re-analysis of the deposited data

Results flagged for a closer look

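The response to ID1 siRNA differed between the lines, by a test of the difference itself in limma, for 7 genes. The log2 differences, A549 minus H1650, were 0.97 for HMGCS1, 0.64 for HSD17B7, 0.73 for SC5D, 1.00 for STARD4, 0.71 for ELOVL6, 1.07 for ABCA1 and 1.13 for ABCG1. HMGCS1, SC5D and ELOVL6 rose in A549 and did not pass in H1650, while HSD17B7, STARD4, ABCA1 and ABCG1 fell in H1650 and did not pass in A549. The ABCG1 fall rests on its brightest probe set, as its others above the filter were at 0.02 and -0.18 in H1650. The cause of these differences was not tested.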

How the results depend on the processing

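Each condition has 1 array and the labels give no replicate numbers, so no replicate block was added, and the matched pairs by line and stimulus are terms of the fit. Of the 29 genes, 11 passed for ID1 siRNA in A549, 5 in H1650, 7 for the difference and 22 between the lines. Without the intensity trend these were 2, 0, 0 and 21. With probe sets averaged they were 8, 3, 3 and 16, with 1 stimulus term for both lines 3 in H1650 and 4 for the difference, and by 2-fold in every pair 0, 1, 1 and 5. Leaving out each array gave 8 to 11 in A549, 4 to 8 in H1650, 6 to 7 for the difference and 20 to 24 between the lines. It gave 0 in A549, 0 to 1 in H1650 and 0 to 1 for their difference for EGF minus nicotine, and 0 for each stimulus against none. With probe sets averaged, A549 minus H1650 turned to -0.35 for SCD (adjusted p = 0.0299) and to 0.024 for SC5D, because the other probe sets enter, the other one of SC5D being below the filter. Over the calls among the 29 genes and the alternatives other than the 2-fold rule, 622 of 742 values kept their call and direction. Of the rest, 118 kept only the direction and 2 reversed. Genes of the further lists are not in these counts.

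Over all tested genes, 3161 passed for ID1 siRNA in A549, against 4914 with arrays centred, 1747 with probe sets averaged, 1394 without the trend, 552 by 2-fold and 1452 without the A549 EGF control. In H1650 1540 passed, against 592 with probe sets averaged, 1 without the trend, 152 by 2-fold and 981 without the nicotine control. For the difference 1490 passed, against 2432 centred, 636 averaged, 199 without the trend, 649 by 2-fold and 878 without the A549 ID1 siRNA EGF array. For A549 minus H1650 7893 passed, against 1923 by 2-fold. For EGF minus nicotine 4 passed in A549 (0 to 30 under other settings, 21 to 216 with an array left out) and 27 in H1650 (0 to 106, and 88 to 266), and 10 for their difference (0 to 145, and 16 to 166). Against no stimulus 0 passed for nicotine and 0 for EGF in limma, while 12 and 56 genes changed by 2-fold in both lines.

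Signals near the array median, such as ABCG1 in H1650 and MVD in A549, limit the size that can be read from them. Array number, at 2 pairs per line, limits the rest.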
